A study of Mus musculus with 6 samples.

Results

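Semaphorins are guidance cues that steer growing axons and migrating cells, plexins are their main receptors, and neuropilins are co-receptors that secreted semaphorins share with vascular endothelial growth factors. The genes examined were the protein-coding genes whose mouse symbol starts with Sema or Plxn, together with *Nrp1* and *Nrp2*. The symbols gave 31 genes out of 17193 in the files, of which 20 were ligands (semaphorins of classes 3 to 7) and 11 were receptors (9 plexins and 2 neuropilins). Their RNA was measured in astrocytes taken from the brain of wild-type C57BL/6 mice at 3 months of age, after a mock treatment or after quinpirole, an agonist of the dopamine D2 receptor, with 3 libraries per group. All 6 libraries came from cells captured with beads against ACSA-2, a surface antigen of astrocytes that *Atp1b2* encodes. The labels number the libraries 1 to 3 in each group, and give neither a dose nor a time for quinpirole nor the number of mice behind a library, so the p-values below measure the spread between these libraries.

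A semaphorin bound to a plexin releases the autoinhibition of the intracellular part of the receptor, which then acts on small GTPases of the Ras and Rap families and, in B-type plexins, recruits guanine nucleotide exchange factors. The cytoskeleton is thereby reshaped, classically as the collapse of a growth cone. Class 3 semaphorins are secreted and mostly need a neuropilin, whereas classes 4 to 6 span the membrane and bind plexins directly, and *Sema7a* encodes a lipid-anchored protein. In the brain, astrocytes express members of the ligand and of the receptor families.

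The deposited unit is FPKM, which scales fragments to a kilobase of transcript and to the depth of the library, so levels can be compared between genes. Tests used limma on log2(FPKM + 1), over the 12255 genes whose mean reached 1 FPKM, and fold changes below are on that scale, which understates changes of weak genes. Depth was estimated from the steps between the lowest values as about 22300000 to 27600000 fragments per library. A smaller step, which matched more of the values, gives 44700000 to 55200000, so fragment numbers below, which use the larger step, may be too low. The labelled cell type was checked against marker genes. All 10 astrocyte markers passed the filter, with summed levels of 1489 to 1650 FPKM in mock and 1478 to 1508 FPKM in quinpirole libraries. The 7 microglia markers summed to 345 to 361 FPKM in mock and 360 to 396 FPKM in quinpirole libraries, with 0 of them called in limma. An unadjusted limma p under 0.05 was found for 5 of the 7 and for 3839 of all 12255 tested genes. Of these 5, *C1qa* (means 206 and 238 FPKM) and *Aif1* were higher in every quinpirole library, whereas *Cx3cr1*, *Csf1r* and *Itgam* were lower in every one. *Acta2*, a smooth muscle actin, reached 2518 to 2690 FPKM and 2710 to 2881 FPKM. Of the astrocyte markers, the glutamate transporter gene *Slc1a2* (5.15 to 8.55 FPKM) and *S100b* (5.01 to 6.18 FPKM) were weak, and *Acta2* alone exceeded the sum of the list.

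Transcripts of 6 of the 10 tested receptors and of 1 of the 14 tested ligands were called lower after quinpirole. The filter left 24 of the 31 genes. Past an adjusted p of 0.05 were 7 of the 24, all of them lower after quinpirole, whereas 10.9% of all tested genes were called, with 5.18% lower and 5.74% higher. The 7 were *Plxna1*, *Plxna2*, *Plxna3*, *Plxna4*, *Plxnb1* and *Plxnb2* among the receptors and *Sema6d* among the ligands. The median log2 fold change was -0.30 for the 10 receptors, -0.15 for the 14 ligands and 0.02 for all tested genes. In 16 of the 24, every quinpirole library lay below every mock library, an order seen in 16.9% of all tested genes. The 16 were 8 of the 10 receptors and 8 of the 14 ligands. The opposite order, which 20% of all tested genes had, occurred in none of the 24. A fold change below 0 was found in 21 of the 24, namely 10 of the 10 receptors and 11 of the 14 ligands, and in 46.2% of all tested genes.

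Across all tested genes the fold change was lower for longer genes, and these receptors are long. Corrected for exonic length, 3 of the 24 were called, all lower (2.07% of all genes were called lower), and corrected for length and GC content, 2 were called lower (1.54% of all genes), namely *Plxnb1* and *Plxnb2*. The calls also rested on most of the libraries. No member passed the threshold without mock library 1, mock library 2 or quinpirole library 1, when 6, 3 and 11 of all 12255 genes passed it, while 7 members and 1215 of all genes passed without mock library 3. Without quinpirole library 2, 1 member (*Plxnb1*) and 25 of all genes passed, and without quinpirole library 3, 2 members (*Plxnb1* and *Plxnb2*) and 210 of all genes did. The 7 genes had been picked by the fit to all 6 libraries, and in each of them every quinpirole library lay below every mock library. A lower mean after quinpirole in all 6 of these fits was therefore certain. Their unadjusted p-values of at most 0.0222 from limma, beside adjusted p-values of up to 0.152, are no independent support.

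**Figure D1:**
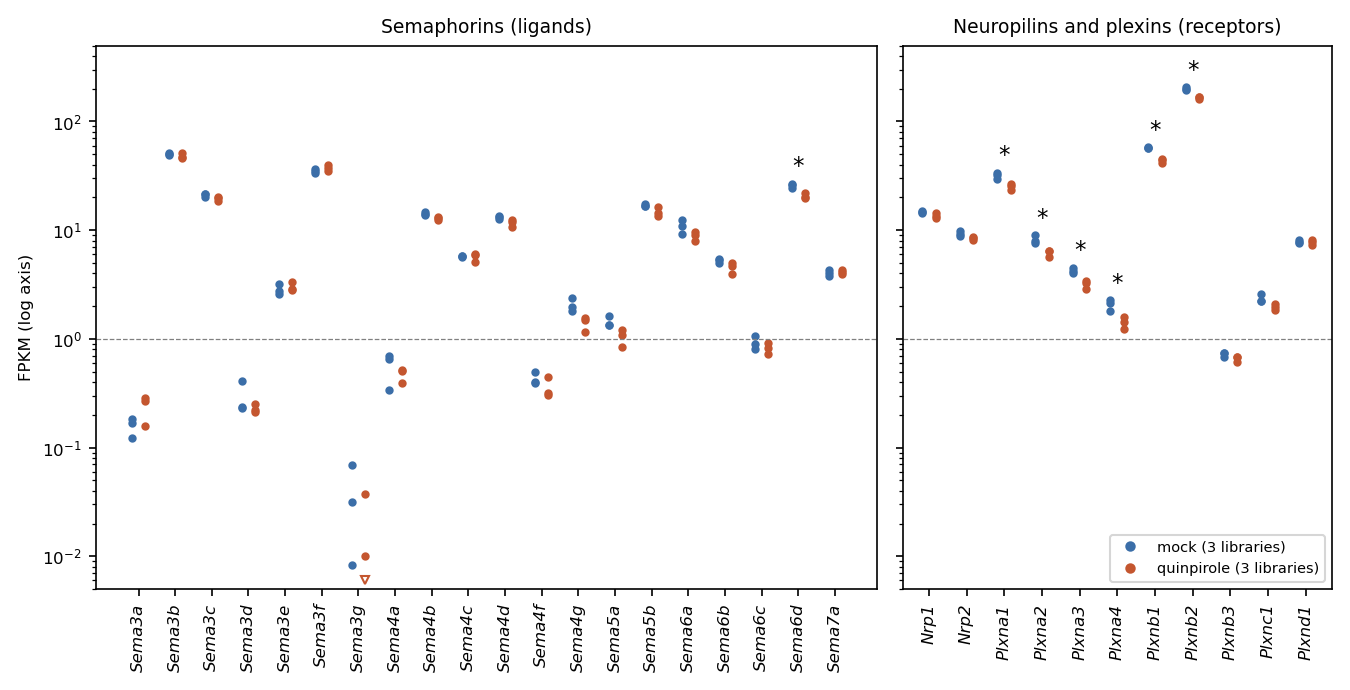
FPKM of the 31 genes on a log axis, with 1 point per library, mock in blue and quinpirole in orange. The dashed line marks 1 FPKM, an open triangle marks a value of 0, and asterisks mark the 7 genes with an adjusted p under 0.05, 6 of which are plexins.

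The promoters of *Plxnb1* and *Plxnb2* are shown because these receptors were called lower also after both corrections, and that of *Plxnd1* because this plexin, close to *Plxnb2* in exonic length, differed little between the groups. Each sequence is the 250 bases upstream of a RefSeq transcription start on GRCm38.p6, 5′ to 3′ on the strand of the gene, and capitals mark the letters GGGCGG of a GC box on either strand. *Plxnb1* was read at chr9:109095186-109095435 on the plus strand, the upstream start of *Plxnb2* at chr15:89180789-89181038 on the minus strand and *Plxnd1* at chr6:115995006-115995255 on the minus strand.
Plxnb1: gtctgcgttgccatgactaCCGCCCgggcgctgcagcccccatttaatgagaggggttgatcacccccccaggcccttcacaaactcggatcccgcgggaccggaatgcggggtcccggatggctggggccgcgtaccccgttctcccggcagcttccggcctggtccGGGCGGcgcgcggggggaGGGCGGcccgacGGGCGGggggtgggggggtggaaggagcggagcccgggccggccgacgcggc
Plxnb2: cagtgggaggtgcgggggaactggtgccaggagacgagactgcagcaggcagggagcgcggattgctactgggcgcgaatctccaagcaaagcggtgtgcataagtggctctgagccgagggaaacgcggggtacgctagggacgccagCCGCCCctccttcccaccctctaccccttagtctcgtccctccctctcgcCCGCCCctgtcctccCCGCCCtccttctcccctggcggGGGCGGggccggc
Plxnd1: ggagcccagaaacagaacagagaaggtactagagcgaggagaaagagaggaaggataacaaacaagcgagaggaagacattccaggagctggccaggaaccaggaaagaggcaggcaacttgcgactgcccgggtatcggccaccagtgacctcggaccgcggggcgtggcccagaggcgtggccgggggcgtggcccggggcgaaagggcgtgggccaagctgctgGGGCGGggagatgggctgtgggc
The windows held 4 GC boxes for *Plxnb1*, 4 for *Plxnb2* and 1 for *Plxnd1*, and the window of a downstream start of *Plxnb2* held 3. Among other receptors the number did not follow the calls. The called *Plxna2* and *Plxna3* had 2 and 1, and *Plxnc1* and *Nrp2*, which were not called, had 4 and 5. A relation of GC boxes with the fold change was not tested. RefSeq windows were found for 26 of the 31 genes, 37 windows in all, and 27 of these held at least 1 GC box, compared with 32.7% of the 32851 windows of all genes. The median C and G content was 64.0% in the members' windows and 52.4% in all windows, and its part in the difference was not tested. The core of the antioxidant response element read by Nrf2, TGACNNNGC, occurred on either strand in 5 of the 37 member windows and in 10.2% of all windows. The 5 windows belong to 5 members (*Plxnb3*, *Sema3g*, *Sema4a*, *Sema4d* and *Sema7a*). Of these 5, only *Sema4d* and *Sema7a* were tested for a difference between the groups, and the called genes *Plxna1* and *Plxna4* had no window. Neither the cyclic AMP response element TGACGTCA (1.55% of all windows) nor the TATA box TATAAA (12.4%) occurred in a member's window.

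B-type plexins, the receptors of class 4 semaphorins, were the most abundant receptors by far. *Plxnb2* (chromosome 15, 89155549 to 89180788, minus strand) ranked 314 of the 12255 tested genes by its mean level. It had 206, 200.1 and 195 FPKM in mock libraries 1 to 3 and 169, 162 and 168 FPKM in quinpirole libraries 1 to 3. Every quinpirole library lay below every mock library. The mean was 200.3 ± 5.66 FPKM (SD, n = 3) after mock and 166 ± 4.15 FPKM (SD, n = 3) after quinpirole, 0.831 times the mock level, for a limma estimate of -0.27 on the log2 scale (standard error 0.04, adjusted p = 0.0225).

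*Plxnb1* (chromosome 9, 109095389 to 109119917, plus strand) encodes the receptor of the semaphorin that *Sema4d* encodes. Its level was 57.5, 58.1 and 56.8 FPKM in the mock libraries and 43.8, 41.4 and 45.2 FPKM in the quinpirole libraries. The mock values lay close together, and the highest quinpirole value was far below them. The mean went from 57.4 ± 0.6596 to 43.5 ± 1.94 FPKM (SD, n = 3 each), 0.757 times the mock level, and the log2 change of -0.39 in limma (standard error 0.04) at an adjusted p of 0.0215 was the most negative of the 24. An antisense gene, *Gm7628*, covers 2.68% of its exonic bases and stood at 0.656 to 1.22 FPKM, and reads of the pair cannot be told apart where counting ignored strand. *Plxnb3*, which binds the class 5 protein that *Sema5a* encodes, stayed under the filter with 0.607 to 0.738 FPKM, and its libraries overlapped.

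*Plxnb2* took a somewhat larger share of plexin RNA after quinpirole. It made up 63.7%, 63.3% and 63.8% of the summed plexin FPKM in the mock libraries and 65.0%, 65.7% and 64.2% in the quinpirole libraries. The share of *Plxnb1* was 17.8%, 18.4% and 18.6%, and then 16.8%, 16.8% and 17.3%. No test was made of these shares, whose groups did not overlap.

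A-type plexins pair with neuropilins to receive class 3 semaphorins and bind class 6 semaphorins alone. They were called lower in 4 of 4 cases, against 5.18% of all tested genes. All 4 are among the 2445 longest genes, of which 16.2% were called lower. Corrected for length only *Plxna1* of the 4 was called, and corrected for length and GC content none was. *Plxna1* (chromosome 6, 89316314 to 89362620) was the most abundant, at 33.7, 32.2 and 29.7 FPKM in the mock libraries and 25.6, 23.5 and 26.6 FPKM in the quinpirole libraries. The groups did not overlap, and the log2 change was -0.32 in limma (standard error 0.06) at an adjusted p of 0.0288. An antisense gene that was not used here, *Gm26811*, covers 10.7% of the exonic bases of *Plxna1*, so that part of its reads is uncertain.

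*Plxna2* (chromosome 1, 194618218 to 194816869), a receptor of the class 6 protein that *Sema6a* encodes, had 8.99, 7.97 and 7.61 FPKM after mock and 6.39, 5.62 and 6.40 FPKM after quinpirole. *Plxna3* (chromosome X, 74329066 to 74344689) had 4.20, 4.50 and 4.02 FPKM after mock and 3.41, 2.86 and 3.25 FPKM after quinpirole. *Plxna4* (chromosome 6, 32144268 to 32588192), which takes part in the repulsion of sensory and sympathetic axons, was the weakest at 2.15, 2.26 and 1.82 FPKM after mock and 1.43, 1.24 and 1.58 FPKM after quinpirole. In each of these genes the groups did not overlap, although the lowest mock and highest quinpirole library of *Plxna4* were close. Their log2 fold changes were -0.36 for *Plxna2* (standard error 0.08, adjusted p = 0.0341), -0.33 for *Plxna3* (standard error 0.07, adjusted p = 0.0388) and -0.35 for *Plxna4* (standard error 0.09, adjusted p = 0.0492), all from limma. The mean FPKM of *Plxna4* fell by 31.9%, that of *Plxna3* by 25.2%, that of *Plxna2* by 25.1% and that of *Plxna1* by 20.8%. About 407 to 804 fragments stood behind the *Plxna4* values, and between 5365 and 8106 behind those of *Plxna1*.

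The single members of types C and D were not called. *Plxnc1*, the receptor of the protein that *Sema7a* encodes, had 2.21, 2.61 and 2.23 FPKM after mock and 2.07, 1.84 and 1.96 FPKM after quinpirole. The groups did not overlap, but the log2 change of -0.18 in limma (95% interval -0.36 to 0.00) at an adjusted p of 0.163 did not pass the threshold. *Plxnd1*, which the protein of *Sema3e* binds without a neuropilin and which is known for its part in vessel patterning, had 8.17, 7.65 and 7.80 FPKM after mock and 7.79, 7.36 and 8.14 FPKM after quinpirole. These groups overlapped, and the log2 change was -0.02 in limma (95% interval -0.15 to 0.12) at an adjusted p of 0.858, while the 6 called plexins lay between -0.27 and -0.39, a difference between genes that was not tested. *Plxnd1* stood at 0.137 ± 0.00525 times the level of *Plxnb1* after mock and at 0.179 ± 0.00128 times after quinpirole (SD, n = 3 each), a ratio chosen after its values were seen and not tested. The sign of the *Plxnd1* fold change turned under other settings, among them 0.10 after the length and GC correction and 0.01 with quantile normalization.

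Neither neuropilin passed the threshold. *Nrp1*, the co-receptor of the protein of *Sema3a* and of vascular endothelial growth factor A, had 14.8, 15.1 and 14.3 FPKM after mock and 14.3, 12.9 and 13.4 FPKM after quinpirole. Its groups overlapped by a narrow margin, and the log2 change was -0.11 in limma (95% interval -0.24 to 0.01) at an adjusted p of 0.182. *Nrp2*, the co-receptor of the protein of *Sema3f*, had 9.20, 9.75 and 8.77 FPKM after mock and 8.59, 8.07 and 8.42 FPKM after quinpirole. Its groups were apart, for a limma estimate of -0.13 on the log2 scale (95% interval -0.26 to 0.00, adjusted p = 0.167). The ratio of *Nrp1* to *Nrp2* was 1.60 ± 0.0433 after mock and 1.62 ± 0.0408 after quinpirole (SD, n = 3 each), a difference within the spread of the libraries.

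**Figure D2:**
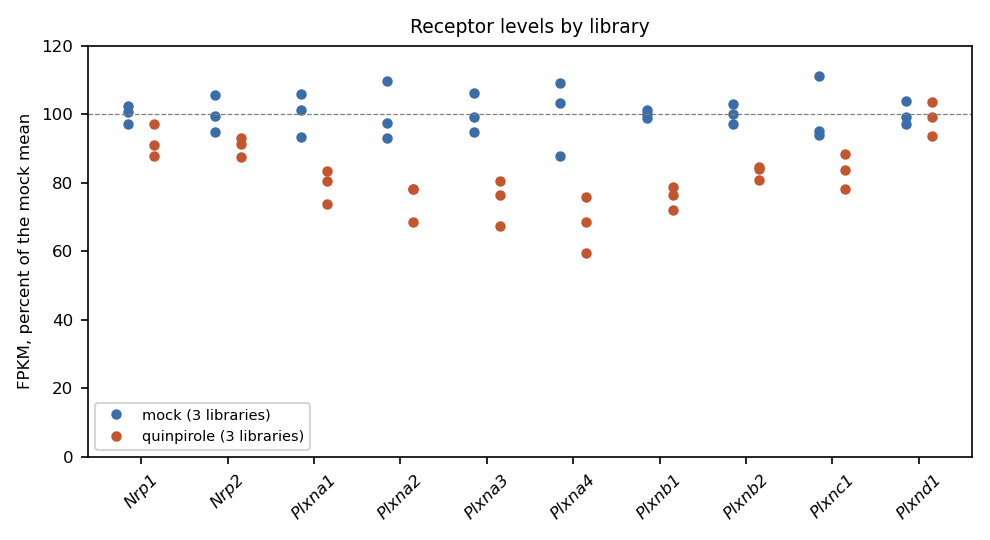
Level of each of the 10 tested receptors in every library as percent of its mean over the 3 mock libraries, on an axis that starts at 0. All quinpirole points of the 4 A-type plexins, *Plxnb1* and *Plxnb2* lie below the mock points, while those of *Nrp1* and *Plxnd1* overlap them.

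Among the ligands, class 3 was the most abundant and had no called gene. *Sema3b* and *Sema3f* lie near each other on chromosome 9 and encode secreted ligands for neuropilin 2. *Sema3b* had 48.6, 49.99 and 51.0 FPKM after mock and 50.9, 47.2 and 46.2 FPKM after quinpirole, for a limma estimate of -0.05 on the log2 scale (95% interval -0.16 to 0.06, adjusted p = 0.470). *Sema3f* had 34.7, 33.2 and 36.9 FPKM after mock and 40.1, 34.7 and 37.0 FPKM after quinpirole, for a limma estimate of 0.09 on the log2 scale (95% interval -0.06 to 0.24, adjusted p = 0.363). Both pairs of groups overlapped. *Sema3c*, a secreted guidance cue known from heart development, had 21.3, 21.4 and 20.1 FPKM after mock and 20.1, 18.4 and 19.9 FPKM after quinpirole, for a limma estimate of -0.10 on the log2 scale (adjusted p = 0.218), and each quinpirole library was below each mock library, by a narrow margin between mock library 3 and quinpirole library 1. *Sema3e* was weak at 2.58 to 3.37 FPKM over all 6 libraries.

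The other members of class 3 were near the limit of detection. *Sema3a*, the classical collapse factor of growth cones, had 0.185, 0.167 and 0.121 FPKM after mock and 0.270, 0.158 and 0.287 FPKM after quinpirole, about 18 to 43 fragments. *Sema3d* had 0.214 to 0.407 FPKM. *Sema3g*, which is known from vessels, was the one member with a value of 0, in quinpirole library 2, and had at most 0.0694 FPKM, about 8 fragments, elsewhere. These 3 genes were not tested, and the groups overlapped in each of them.

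Class 4 semaphorins span the membrane and bind B-type plexins, and none of them was called. In 3 of the 4 tested genes every quinpirole library lay below every mock library, as in 16.9% of all tested genes. *Sema4b* had 14.8, 14.1 and 13.9 FPKM after mock and 12.9, 12.5 and 13.3 FPKM after quinpirole, for a limma estimate of -0.13 on the log2 scale (95% interval -0.25 to -0.02, adjusted p = 0.108). *Sema4d*, which encodes the ligand of the *Plxnb1* product, had 13.15, 12.8 and 13.5 FPKM after mock and 10.8, 12.3 and 11.8 FPKM after quinpirole, for a limma estimate of -0.16 on the log2 scale (95% interval -0.30 to -0.03, adjusted p = 0.105). Both genes had lower values in each quinpirole library, and their intervals leave out 0 while the adjusted p-values miss the threshold. *Sema4g* showed the most negative fold change of any ligand, -0.34, at a mean of 2.05 FPKM after mock and 1.40 FPKM after quinpirole (adjusted p = 0.0704 from limma). *Sema4c* had 5.74 and 5.70 FPKM, and *Sema4a* (0.338 to 0.702 FPKM) and *Sema4f* (0.302 to 0.493 FPKM) were under the filter with overlapping groups.

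The semaphorins of class 5 carry thrombospondin repeats, which bind sulfated sugar chains. *Sema5b*, the more abundant, had 16.8, 16.6 and 17.5 FPKM after mock and 14.3, 13.6 and 16.3 FPKM after quinpirole. *Sema5a* had 1.62, 1.35 and 1.35 FPKM after mock and 1.198, 0.8485 and 1.10 FPKM after quinpirole. Neither pair of groups overlapped, and neither gene passed the threshold (log2 fold changes -0.20 and -0.25, adjusted p = 0.0999 and 0.116 from limma). With an exonic length of 18686 bases *Sema5a* is the longest member, and its fold change was -0.03 after the length correction.

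Class 6 held the 1 called ligand. *Sema6d* (chromosome 2, 124089969 to 124667770, plus strand) encodes a transmembrane ligand of the *Plxna1* product, and had 26.3, 26.65 and 24.5 FPKM in the mock libraries and 22.1, 19.6 and 20.3 FPKM in the quinpirole libraries. The groups were well apart, and the mean went from 25.8 ± 1.13 to 20.7 ± 1.27 FPKM (SD, n = 3 each), for a limma estimate of -0.31 on the log2 scale (standard error 0.06, adjusted p = 0.0258). *Sema6a*, a ligand of the *Plxna2* and *Plxna4* products, ranged from 9.15 to 12.5 FPKM after mock and from 7.96 to 9.71 FPKM after quinpirole, and mock library 1 lay among the quinpirole libraries. *Sema6b* went from 5.26 ± 0.224 to 4.53 ± 0.536 FPKM (SD, n = 3 each) with an adjusted p of 0.181 from limma, and *Sema6c* was just under the filter with means of 0.925 FPKM after mock and 0.824 FPKM after quinpirole. In class 7, *Sema7a* had 4.27, 4.07 and 3.80 FPKM after mock and 4.16, 4.26 and 3.97 FPKM after quinpirole, with overlapping groups and a log2 change of 0.02 in limma (95% interval -0.12 to 0.17) at an adjusted p of 0.822.

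**Figure D3:**
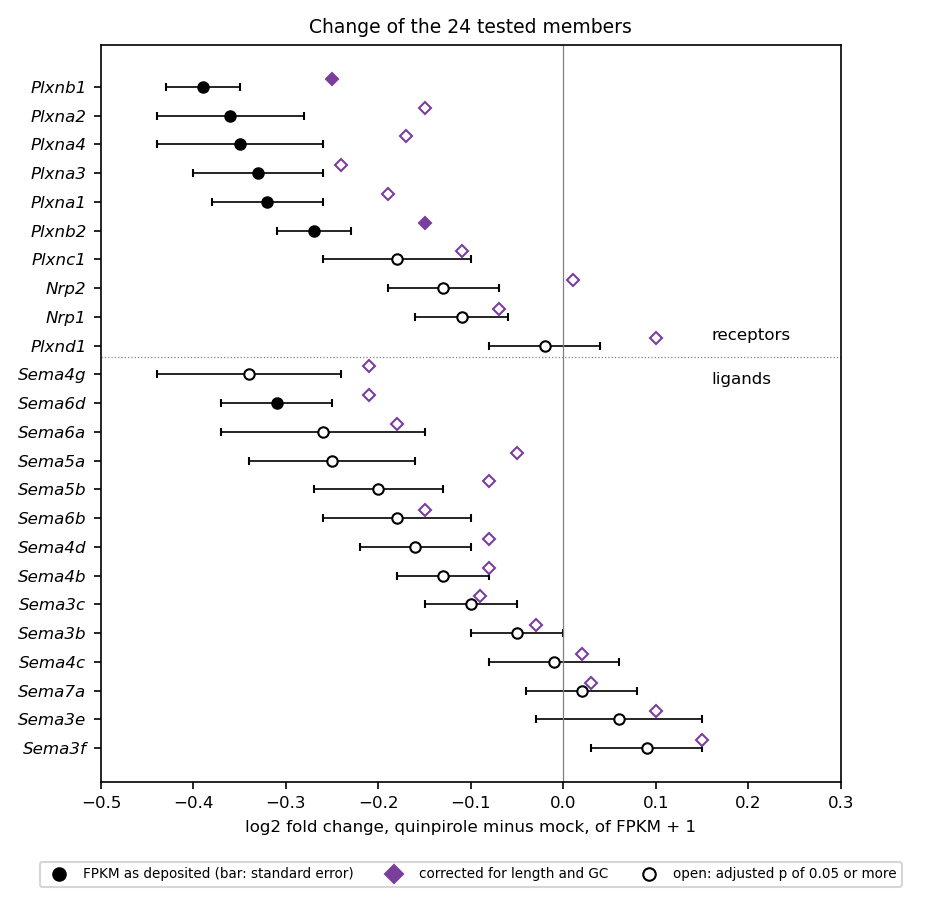
Log2 fold change of FPKM + 1 between quinpirole and mock for the 24 tested genes, with circles and standard errors for FPKM as deposited and diamonds for values corrected for length and GC content. Filled symbols have an adjusted p under 0.05, which holds for 7 circles and for the diamonds of *Plxnb1* and *Plxnb2*, and 6 of the diamonds lie above 0.

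Summed over the family, the receptors differed between the groups by more than the ligands. The 20 ligands summed to 209, 211 and 212 FPKM in the mock libraries and to 203, 188 and 196 FPKM in the quinpirole libraries. The 11 receptors summed to 348, 341 and 328.5 FPKM in the mock libraries and to 283.5, 267 and 284 FPKM in the quinpirole libraries. Neither pair of groups overlapped, and the mean sum changed by -7.10% for ligands and by -17.95% for receptors. These sums are not corrected for length, and the tested receptors are longer than the tested ligands (median 9323 and 7110 exonic bases). After the length correction the median log2 fold change was -0.17 for receptors and -0.08 for ligands. With the longest transcript in place of exonic length, the medians were -0.12 and -0.10. The ratio of ligand to receptor FPKM was 0.602, 0.619 and 0.644 after mock and 0.716, 0.702 and 0.692 after quinpirole, higher in every quinpirole library. *Plxnb2* dominates the receptor sum, but without it the ratio went in the same direction, from 1.52 ± 0.0557 to 1.75 ± 0.0467 (SD, n = 3 each). No test was made of a sum or ratio over the members, because the genes were chosen with results of these libraries known.

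**Figure D4:**
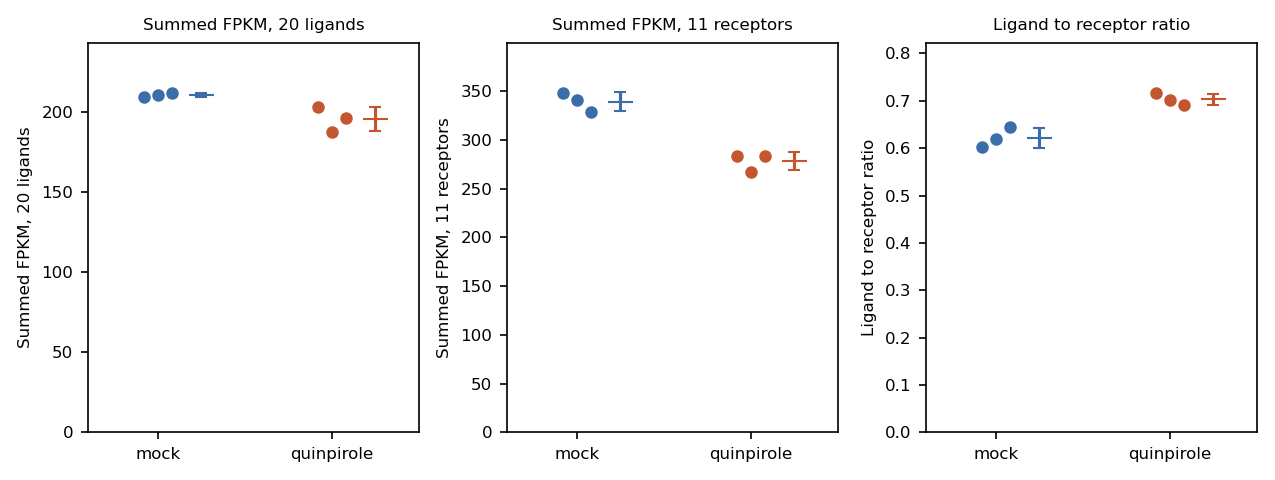
Summed FPKM of the 20 ligands and of the 11 receptors and their ratio, with 1 point per library and the mean ± SD of 3 libraries beside the points, on axes that start at 0. Receptor sums lie between 328.5 and 348 FPKM after mock and between 267 and 284 FPKM after quinpirole. The values are not corrected for length.

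For ligand and receptor pairs known to bind each other, the ratios differed from pair to pair. *Sema4d* stood at 0.229, 0.220 and 0.238 times the level of *Plxnb1* after mock and at 0.246, 0.297 and 0.261 times after quinpirole. *Sema6d* and *Plxna1*, both called, kept a ratio of 0.812 ± 0.0273 after mock and 0.821 ± 0.0516 after quinpirole (SD, n = 3 each). *Sema3e* to *Plxnd1*, neither of them called, gave 0.362 ± 0.0310 and 0.389 ± 0.0395. *Sema3b* to *Nrp2*, also without a call, gave 5.41 ± 0.360 and 5.75 ± 0.234. *Sema7a* to *Plxnc1* gave 1.73 ± 0.188 and 2.11 ± 0.175, and *Sema3f* to *Nrp2* gave 3.80 ± 0.402 and 4.46 ± 0.190, higher in every quinpirole library in both pairs, with no member of either pair called. *Sema4d* to *Plxnb1* was likewise higher in every quinpirole library, while the groups overlapped for the other pairs named. The pairs were not tested, and the RNA ratio says nothing of the proteins at the cell surface.

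Transcript length ran parallel to these changes. Exonic length was correlated with the log2 fold change across 12223 genes (Spearman correlation -0.47) and across the 24 members (Spearman correlation -0.57), where genes are not independent replicates and share the 6 libraries. The tested receptors had a median exonic length of 9323 bases, the ligands of 7110 bases and all genes with a length of 4521 bases. Of the 2445 longest genes, with at least 7767 exonic bases, 16.2% were called lower, as were 6 of the 13 members among them. The other called member, *Plxnb2*, lay among the 2444 next longest, of which 5.56% were called lower. What causes the relation with length was not tested.

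The length correction brought the median log2 fold change of the receptors to -0.17 and that of the ligands to -0.08, with 21 of the 24 members below 0. *Plxnb1* was then at -0.31 (adjusted p = 0.0260), *Plxnb2* at -0.20 (adjusted p = 0.0308) and *Plxna1* at -0.24 (adjusted p = 0.0454), all from limma. *Sema6d* was at -0.20 with an adjusted p of 0.0503 from limma, and *Plxna2*, *Plxna3* and *Plxna4* lay between -0.15 and -0.27 without passing. With GC content corrected as well, *Plxnb1* was at -0.25 (adjusted p = 0.0354) and *Plxnb2* at -0.15 (adjusted p = 0.0406), and *Plxna1* at -0.19 (adjusted p = 0.0641), by limma. With the longest transcript in place of the exonic length, a setting chosen after the data were seen, *Plxnb1* (-0.21) and *Plxnb2* (-0.16) passed with an adjusted p of 0.0457 each from limma, while 1.22% of all genes were called lower. *Plxnd1* and *Plxnb2*, of 7301 and 7720 exonic bases, were at 0.03 and -0.20 after the length correction.

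**Figure D5:**
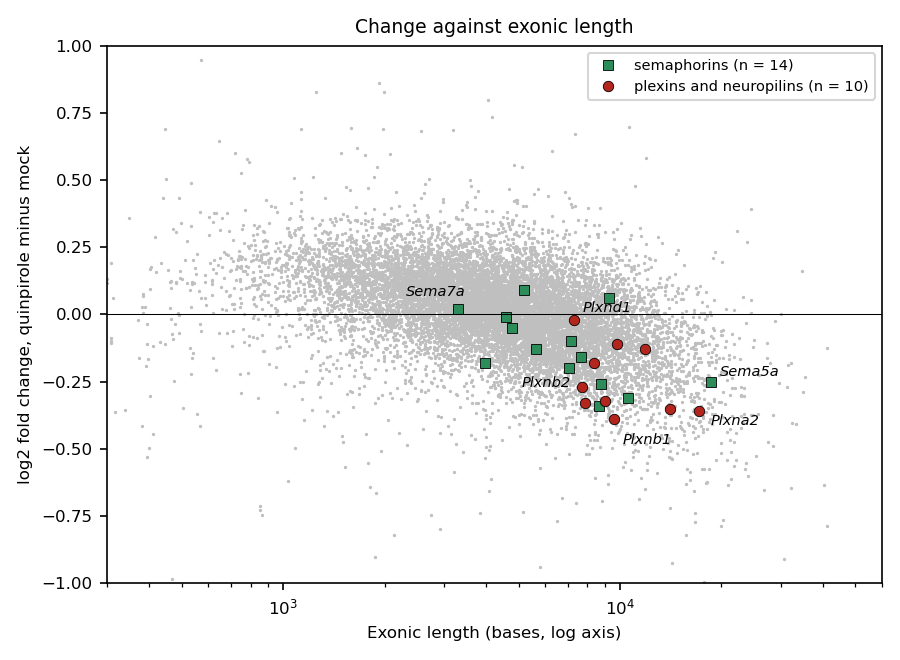
Log2 fold change between quinpirole and mock against exonic length on a log axis, with all tested genes in grey (28 genes outside the drawn range are left out), 14 semaphorins as green squares and 10 plexins and neuropilins as red circles. Long genes lie lower, and *Plxnb2* (7720 bases) lies below *Plxnd1* (7301 bases).

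Partners and effectors of these receptors did not share one direction. The list, written from general knowledge of the pathway, held 67 genes other than the members, of which 66 were in the files and 61 were tested. Past the threshold were 6, 2 of them higher (5.74% of all tested genes were called higher) and 4 lower (against 5.18%), and the median log2 fold change of the list was -0.01. They comprised 5 of the 28 plexin partners and effectors and 1 of the 12 collapsin response mediator and MICAL genes. The lower ones included both guanine nucleotide exchange factors that bind the tail of B-type plexins. *Arhgef12* had 27.9, 28.4 and 25.9 FPKM after mock and 21.8, 18.85 and 21.9 FPKM after quinpirole (log2 fold change -0.38, adjusted p = 0.0251 from limma), and *Arhgef11* had 16.8, 17.4 and 16.5 FPKM after mock and 15.1, 14.7 and 14.8 FPKM after quinpirole (log2 fold change -0.17, adjusted p = 0.0471 from limma). *Arhgap35*, which encodes a GTPase-activating protein, and *Dpysl5*, of the collapsin response mediator family, were the other lower ones, at -0.20 (adjusted p = 0.0434) and -0.23 (adjusted p = 0.0412) by limma.

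The higher ones were *Rhoa*, the small GTPase on which these exchange factors act, and *Cfl1*, which encodes the actin-severing protein cofilin. *Rhoa* had 168, 169 and 174 FPKM after mock and 193, 193 and 182.5 FPKM after quinpirole (log2 fold change 0.15, adjusted p = 0.0464 from limma). *Cfl1* went from 1065 to 1230 FPKM on average (log2 fold change 0.21, adjusted p = 0.0395 from limma). All 6 genes had groups that did not overlap, which held for 16.9% of all tested genes on the lower side and 20% on the higher side. With quantile normalization *Rhoa* was at 0.03 (adjusted p = 0.607) and *Cfl1* at 0.06 (adjusted p = 0.281) by limma. After the length correction *Rhoa* (0.21, adjusted p = 0.0448) and *Arhgef12* (-0.22, adjusted p = 0.0469) passed by limma, and after length and GC content together none of the 61 did. An unadjusted limma p under 0.05 was then found for 13 of the 61 and for 3041 of all 12223 genes. Integrin β1, a receptor for the *Sema7a* product that *Itgb1* encodes, stood at a mean of 291 FPKM after mock and 317 FPKM after quinpirole (adjusted p = 0.0840 from limma).

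Several members are known from other cells of the brain, and fewer cells of one type cannot be told apart from less RNA per cell in bulk samples. Of the 8 endothelial markers, 7 had a mean under 1 FPKM, among them *Pecam1* with at most 0.0596 FPKM and *Tie1* listed at 0 in 5 of 6 libraries, while the transporter gene *Slco1a4* had 44.4 to 47.55 FPKM. The oligodendrocyte markers summed to 158 to 178 FPKM after mock and 165 to 176 FPKM after quinpirole, with *Mog*, *Mag* and *Mobp* under 1 FPKM. The precursor markers summed to 2.64 to 3.19 FPKM and to 2.14 to 2.39 FPKM, lower in every quinpirole library. Of these only *Cspg4* was tested, with overlapping groups (adjusted p = 0.267 from limma), and *Pdgfra*, *Gpr17* and *Sox10* were under 1 FPKM. The neuronal markers summed to 43.4 to 45.1 and 42.8 to 48.5 FPKM, and 6 of the 8 had a mean under 1 FPKM. Nearly all of that sum was *Tubb3*, higher in every quinpirole library, and *Map2*, lower in every one, neither of them called. Among all tested genes, 20% and 16.9% had these orders. The pericyte and smooth muscle markers summed to 2546.5 to 2716 FPKM and 2732 to 2902 FPKM, nearly all of it *Acta2*, and *Pdgfrb* of that list was called lower, from 26.25 to 21.2 FPKM. The ependymal markers summed to 136 to 149 FPKM after mock and 136 to 143.5 FPKM after quinpirole, mostly *Foxj1*. Within the astrocyte list *Slc1a2* and *Atp1b2* were called lower. The part of these differences in the plexin results was not tested.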

How the data were processed

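RNA of ACSA-2-selected astrocytes was sequenced after poly-A selection in 6 libraries, 3 per group. The submitters' processing notes name TopHat2 and GRCm38. The authors deposited FPKM per gene, and the program that made these values, its annotation, its counting strand and the versions are not given in the sources used here. Groups were taken from the labels. Gene IDs were given symbols, positions and exonic lengths from GENCODE M21, which matched 17090 of 17193 IDs.

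Tests were computed here with limma 3.58.1 in R 4.3.3 (trended variance, 2 groups, no block) on log2(FPKM + 1) of genes with a mean of at least 1 FPKM, two-sided, with Benjamini-Hochberg adjustment over all tested genes and a threshold of 0.05. The length correction subtracted, in each library, a loess curve (span 0.3) of log2 values relative to the gene's mean against log2 exonic length. The length and GC correction added a like curve for GC content. The fit was run on simulated data with log2 changes of 1, and the length correction on a simulated length trend. The called members changed by less than 1, so the simulation does not speak to changes of their size. Depth was estimated from steps between low values of 1254 genes with a single transcript, whose values came within 0.1 of whole fragments in 58.7% to 66.7% of cases per library, where chance gives 20%. A smaller step matched 69.6% to 81.1% of values, so depth is known only roughly, and no count test was run. No pair of libraries agreed within sampling noise.

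The members and the lists of partners and markers were chosen with earlier results of these data known. Values per library are given for members past the threshold or with a mean of at least 10 FPKM, for both neuropilins and for the most abundant member of each class, and partners past the threshold are named. Beyond this rule, *Sema3a*, *Sema5a*, *Sema6a* and *Itgb1* are described for their place in the pathway.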

Additional observations from a re-analysis of the deposited data

How the results depend on the processing

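Under the other settings, of 424 values of single members, 343 kept direction and side of the threshold, 66 lost the call and 15 changed sign. The 66 all belong to the 7 called members, the only ones with a call to lose. Of the values of these 7, more lost the call than kept it. Most of the 343 belong to the 17 members not called, so the 343 do not measure how stable the calls were. The numbers past the threshold in limma were 1339 of all genes, 7 members (6 receptors and 1 ligand) and 6 partners. Without a filter they were 633, 4 (3 receptors) and 1. Quantile normalization gave 783 genes and 3 partners, with 283 genes higher and 500 lower against 704 and 635, and a variance without trend gave 714 genes and 1 partner. The length correction gave 509 genes, 3 members, all receptors, 0 ligands and 2 partners, the length and GC correction 375, 2, 0 and 0, and the correction on the longest transcript, chosen after seeing the data, 280, 2, 0 and 0. The median log2 fold change of the ligands was then -0.08, -0.08 and -0.10, and -0.08 without a filter, and that of the receptors -0.17, -0.15 and -0.12. Why the counts moved was not tested. With quantile normalization and with a variance without trend, the same 12255 genes entered the adjustment as in the main fit.

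The replicate numbers did not pair the libraries: deviations of same-numbered libraries correlated at 0.0260, -0.0657 and -0.103. With the replicate number as a block, 2 of all genes, 0 members, 0 receptors, 0 ligands and 0 partners passed. An unadjusted limma p under 0.05 was found for 11 of the 24 members and for 3308 of all 12255 genes. With block and length correction the counts were 0 throughout, and the medians were -0.08 for ligands and -0.17 for receptors. An unadjusted limma p under 0.05 was then found for 9 of the 24 members and for 2723 of all 12223 genes.

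Leaving out 1 library gave 3 to 1215 genes, 0 to 7 members, 0 to 6 receptors, 0 to 1 ligand and 0 to 5 partners, with medians from -0.17 to -0.11 for ligands and from -0.32 to -0.26 for receptors. Signs changed, none past the threshold, for *Nrp2* with length and GC correction (0.01), for *Sema3e* on leaving out 1 library (range -0.00 to 0.13, the lowest without quinpirole library 1), and for *Sema4c* with quantile normalization (0.02), with length and GC correction (0.02) and on leaving out 1 library (-0.05 to 0.05, above 0 without quinpirole library 1). They also changed for *Sema7a* with the length correction (-0.03, also with the block) and on leaving out 1 library (-0.01 to 0.06, below 0 without mock library 3). For *Plxnd1* the sign changed with quantile normalization (0.01), the length correction (0.03, also with the block), length and GC correction (0.10), the longest transcript (0.11), and on leaving out 1 library (-0.05 to 0.02, above 0 without mock library 1 or quinpirole library 2). With 3 libraries a group, small differences of weak members could not be resolved.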
